A study of Sus scrofa with 32 samples.

Results

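Testes of 17 male pigs of the High AS group, 7 fed a chicory additive and 10 fed a control diet, were compared out of the 32 pigs with testis RNA sequencing in the study. They were chosen by their labels alone, as the pigs marked High AS with either diet. All were Danish crossbreds of Duroc with Landrace/Yorkshire, slaughtered at about 100 kg, and AS is the study's grouping by androstenone and skatole, the 2 compounds behind boar taint. Chicory pigs received the additive, given as 15%, 3 days before slaughter, and control pigs did not; ages are not given in the sources used here. The 17 pigs came from 12 sows, and 4 sows had sons on both diets (9 pigs, 5 on chicory and 4 on control). Each pig gave 1 library, made with a stranded mRNA kit from testis RNA.

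Androstenone is a 16-androstene steroid made from pregnenolone by the Leydig cells of the boar testis, alongside testosterone, and stored in fat. Chicory root is rich in inulin, a fibre that gut bacteria ferment, and chicory feeding is known for lowering skatole, a bacterial breakdown product of tryptophan that the liver clears. The testis itself is mostly germ cells, which pass from spermatogonia through meiotic spermatocytes to round and elongating spermatids inside tubules lined by Sertoli cells, with Leydig cells, vessels and macrophages between the tubules.

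Libraries fell into 2 sets that the sample names separate. The 6 libraries that carry a number, 3 from each diet, held 10585625 to 20349500 gene counts, and the 11 plain libraries, 4 chicory and 7 control, held 2268778 to 5783562. Within the plain set the chicory libraries were shallower, at a mean of 3054780 against 4311810 gene counts (two-sided exact permutation test, unadjusted p = 0.0424). The set was a term in the test of every gene. Reads in no gene made up 20.6% to 35.9% of each pig's reads. In the plain set the mean of that share was 33.9% on chicory and 28.9% on control (two-sided exact permutation test, unadjusted p = 0.103).

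No measure in the labels passed the test between diets, nor did the library measures that were adjusted together with them. Those were gene counts, reads in no gene, genes detected, and the shares of counts in the top 10 genes and in mitochondrial genes. Androstenone was 2.51 ± 1.75 mg/kg on chicory (SD, n = 7) and 2.64 ± 2.23 mg/kg on control (SD, n = 10; two-sided exact permutation test, p = 0.905, adjusted p = 0.996 over 9 measures). The chicory pigs ran from 1.12 over a median of 1.94 to 5.90 mg/kg and the control pigs from 0.67 over 1.63 to 7.77 mg/kg, so the highest and the lowest pig were both controls. Carcass weight was 91.8 ± 6.91 kg (SD, n = 6) and 91.7 ± 4.93 kg (SD, n = 9; exact permutation p = 0.978). Skatole was recorded for only 2 chicory pigs, at 0.033 and 0.239 mg/kg, and for 7 controls, with a median of 0.083 mg/kg (exact permutation p = 0.833). The sires' estimated breeding value for androstenone was higher on chicory, at 0.167 ± 0.143 (SD, n = 7) against -0.0130 ± 0.287 (SD, n = 10), with overlapping ranges (exact permutation p = 0.153). In the plain libraries alone the exact permutation p was 0.106. High AS sons of the same sow carried the same breeding value. The permutation treats pigs as independent, so its p does not measure how unusual this imbalance is. High AS pigs were grouped by androstenone and skatole, so both measures are compared within a selected range.

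**Figure D1:**
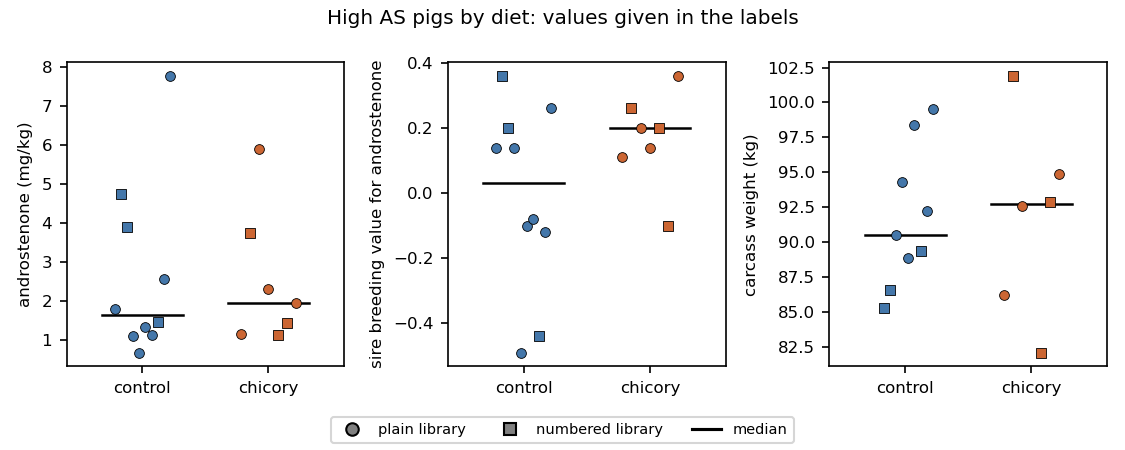
Androstenone (mg/kg), the sire's breeding value for androstenone and carcass weight (kg) of each High AS pig, by diet. Points are pigs, circles plain and squares numbered libraries, and the line is the median; the androstenone medians are 1.94 on chicory and 1.63 mg/kg on control and the points of the diets overlap.

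No gene passed the test of diet. Of 12781 genes tested with edgeR's quasi-likelihood F test, 0 (0%) had an adjusted p under 0.05, and the smallest adjusted p was 1. At an unadjusted p under 0.05 there were 281 genes, 164 higher on chicory (1.28% of the genes tested) and 117 lower (0.915%). Together these shares were below the share of 0.05 that uniform p-values would give. Genes named below at that level are therefore given as values and not as differences found. DESeq2 and limma voom also called 0 genes, with 312 and 270 at an unadjusted p under 0.05. In no gene did the CPM values (counts scaled to each library's depth with TMM factors) of the 7 chicory pigs all lie on 1 side of those of the 10 controls (0%), nor did this hold within both library sets in the same direction (0%).

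The intervals of the differences were narrow for most genes. The 95% interval of a gene's log2 difference reached 0.42 to each side of its estimate at the median gene (a factor of 1.34), with quartiles of 0.32 and 0.56. For 11415 genes (89.3%) the whole interval lay within 1 log2 unit of no difference. Estimates past that size occurred in 47 genes, 13 higher and 34 lower on chicory.

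Genes of androgen synthesis had estimates near or below 0 on chicory, and none passed the test. CYP17A1 stood at 305, 718 and 1967 CPM (lowest, median and highest pig) on chicory and at 296, 1053 and 2916 CPM on the control diet; its enzyme, 17-alpha-hydroxylase/17,20-lyase, sits at the branch to androgens and 16-androstenes (log2 difference -0.23, 95% interval -0.86 to 0.39, adjusted p = 1 in edgeR). CYB5A stood at 527, 834 and 1386 CPM (lowest, median and highest pig) on chicory and at 725, 1054 and 1671 CPM on the control diet, and its product, cytochrome b5, directs CYP17A1 toward 16-androstenes in the boar (log2 difference -0.27, 95% interval -0.68 to 0.14). The pigs of both diets overlapped over most of the range of either gene. CYP11A1, the side-chain cleavage enzyme that starts steroid synthesis, had a log2 difference of -0.23 (95% interval -0.83 to 0.38), and HSD17B3, which makes testosterone, -0.36 (-0.91 to 0.19). SRD5A1, a steroid 5-alpha-reductase, stood at 0.04 (-0.50 to 0.58), an estimate that ran from -0.36 without High AS chicory replicate 3 to 0.17 as single pigs were left out. In that pig SRD5A1 was at its highest of the 7 chicory pigs, 159.6 CPM against a chicory median of 47.2.

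Across the steroidogenesis list the estimates leaned lower on chicory: 4 of 18 tested genes were higher, with a median log2 difference of -0.23 and 0 called, against 6181 of 12781 higher (48.4%) and a median of -0.01 over all genes. Leaving out single pigs moved that median to between -0.31 and -0.10, the latter without High AS control replicate 5. Of the 28 genes on the list, 20 had an identifier. The 18 tested included many members of the HSD17B family but neither of the genes STAR and HSD3B1, so the list covers androgen synthesis only in part. Of the 13 Leydig cell markers 3 were higher, with a median of -0.23. This list shares CYP17A1, CYP11A1, CYB5A and HSD11B1 with the steroidogenesis list, so the 2 are not separate results. INSL3, the Leydig hormone of testis descent (log2 difference -0.23, SE 0.32), LHCGR, the receptor for luteinizing hormone (log2 difference -0.29, SE 0.32), and NR5A1, the factor that drives steroidogenic genes (log2 difference -0.27, SE 0.35), were each within their error. Without control replicate 5 the Leydig median was -0.08, and without control replicate 8 -0.08. Summed over the Leydig markers, the pigs stood at 1547, 2294 and 6557 CPM on chicory (lowest, median, highest) and 2129, 3672 and 7767 CPM on control. 2 chicory pigs were below the lowest control, 1 control pig was above the highest chicory pig, and the rest overlapped. In whole testis, fewer cells of a type and less RNA per cell cannot be told apart.

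The estimates turned in the subset of 9 pigs from the 4 sows with sons on both diets, with or without the sow in the test. In these 9 pigs, 5 on chicory and 4 on control, 15 of 18 steroidogenesis genes were higher on chicory without a block (median 0.28) and 16 of 18 with the sow as a block (median 0.17). Of the Leydig markers 10 and 11 of 13 were higher (medians 0.27 and 0.11). With the sow as a random effect over all 17 pigs (limma voom), the medians stayed below 0, at -0.13 for steroidogenesis (3 of 18 higher) and -0.17 for the Leydig markers. Such turns were common: of 31 gene lists with 5 or more tested genes, 20 had a median of the other sign in the 9 pigs without a block, 19 with it, and 2 with the random effect over all pigs. CYP17A1 was higher on chicory in all 4 sows, by 1.501, 0.25, 0.09 and 0.64 on the log2 CPM scale, and its difference with the block was 0.55 (SE 0.32, not called). The differences by sow have no term for library set and rest on 1 control pig per sow. Diet and library set were mixed within the sows at 1.501, 0.25 and 0.64. The control of the sow at 1.501 was High AS control replicate 3, the pig set apart by its liver genes. With the sire's breeding value in the test of all 17 pigs, the median of the steroidogenesis list was 0.03 and 9 of 18 were higher. No gene of the list was called in any of these settings.

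**Figure D2:**
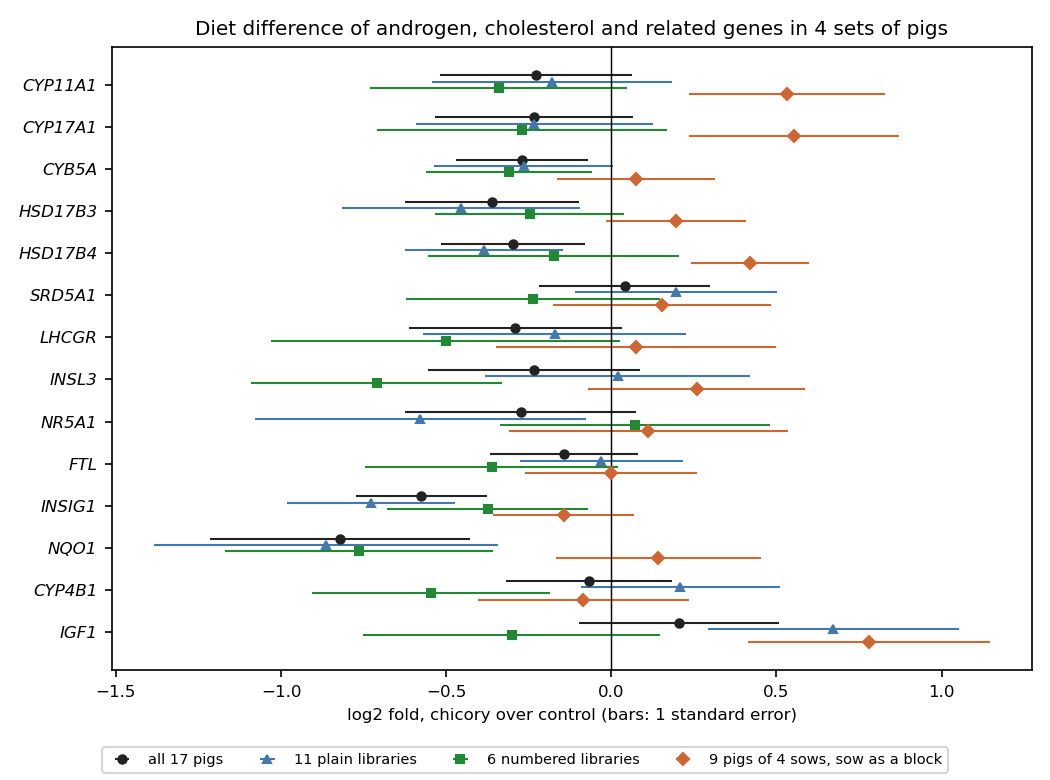
Log2 difference of chicory over control (points) with 1 standard error (bars) for 14 genes of androgen synthesis, cholesterol and related metabolism, in all 17 pigs, in the plain and in the numbered libraries, and in the 9 pigs of 4 sows with the sow as a block. CYP17A1 lies at -0.23 in all pigs and at 0.55 within sows, and INSIG1 lies below 0 in all 4 sets.

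In the list for cholesterol synthesis and uptake, INSIG1 was among the lower genes with the smallest p, and no member passed the test. INSIG1 stood at 22.05, 24.5 and 30.6 CPM (lowest, median and highest pig) on chicory and at 23.6, 35.7 and 67.7 CPM on the control diet. INSIG1 retains the SREBP sterol sensor in the endoplasmic reticulum and is itself a sterol-responsive gene, and all 7 chicory pigs were below the control median although the ranges overlapped (log2 difference -0.58, SE 0.20, unadjusted p = 0.00851, adjusted p = 1 in edgeR). It was at -0.73 in the plain and -0.37 in the numbered libraries and at -0.14 in the 9 pigs of 4 sows with the sow as a block. Over the list 5 of 28 genes were higher and the median was -0.17. In the 9 pigs of 4 sows the list was 17 of 28 higher, median 0.16 without a block and 21 of 28 higher, median 0.14 with it. Over all 17 pigs the median was 0.02 with the sire's breeding value, -0.13 with the sow as a random effect and -0.08 without control replicate 8. LIPE, hormone-sensitive lipase, which has a germ cell form in the testis, was the member with a higher estimate at an unadjusted p under 0.05 (log2 difference 0.34, SE 0.13).

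Enzymes and receptors for foreign compounds, which detoxify plant and drug molecules, held no gene past the test. Of 17 xenobiotic genes tested 2 were higher, with a median of -0.16 and none at an unadjusted p under 0.05. AHR, the receptor for planar plant and pollutant compounds, had medians of 11.1 CPM on both diets (log2 difference -0.25, SE 0.26). CYP1A1, its main target, was too low to test, with at most 15 reads in any pig and at least 1 read in 12 of the 17. CYP4B1, a cytochrome P450, was at -0.07 (SE 0.25). CYP2E1, which in liver degrades skatole, had a log2 difference of -0.30 that became 0.44 without High AS control replicate 3, the pig with 43.6 CPM against a control median of 4.95. NQO1, a quinone reductase of the NRF2 response, was lower (log2 difference -0.82, SE 0.39) in both library sets but higher in 2 of 4 sows. Of 10 tested genes on a list for short-chain fatty acids, the products of inulin fermentation, 3 were higher, and the median was -0.11. These were mostly metabolic enzymes and histone deacetylases (OXCT1, ACSS1, ACSS2, ACSS3, ACSM3, BDH2, HDAC2 and HDAC3), with SLC16A7 and with FFAR4, a receptor of long-chain fatty acids. The receptors FFAR2 and FFAR3 were not among the 10 tested. The transporters SLC5A8, SLC5A12 and SLC16A3 were too low to test, so sensing and uptake of these acids were hardly measured. Of the 5 tested genes on the steroid conjugation list, PAPSS2, SUMF1, SULT1A3, SLC35B3 and SLC35B2, 0 were higher (median -0.22). SULT1E1 and SULT1A1 had no identifier and SULT2B1 was too low to test, so the list gives no reading of androgen sulphation itself. In the 9 pigs of 4 sows without a block, 4 of 5 conjugation genes (median 0.11) and 9 of 17 xenobiotic genes (median 0.04) were higher.

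Genes of late sperm formation were all estimated higher on chicory. All 24 markers of elongating spermatids, the cells that condense their chromatin and build the flagellum, had a log2 difference above 0, with a median of 0.20, 5 at an unadjusted p under 0.05 and 0 called. PRM2 stood at 641, 2047 and 3747 CPM (lowest, median and highest pig) on chicory and at 257, 1112 and 3255 CPM on the control diet. PRM2 is a protamine that packs sperm DNA, and 6 of 7 chicory pigs were above the control median although the ranges overlapped (log2 difference 0.79, SE 0.32, unadjusted p = 0.0212, adjusted p = 1 in edgeR). SPATA18 stood at 588, 727 and 897 CPM (lowest, median and highest pig) on chicory and at 371, 562 and 730.0 CPM on the control diet, with all 7 chicory pigs above the control median (log2 difference 0.35, SE 0.13). SPEM2 (log2 difference 0.44, SE 0.19), SPATA3 (log2 difference 0.43, SE 0.19) and AKAP4, which anchors protein kinase A in the fibrous sheath (log2 difference 0.29, SE 0.13), were the other 3. PRM1 (log2 difference 0.29, SE 0.24) and TNP1, a transition protein that replaces histones before protamines (log2 difference 0.28, SE 0.21), did not reach that level.

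The earlier germ cells did not lean this way. Of the round spermatid markers 13 of 23 were higher (median 0.03), of the spermatocyte markers 9 of 22 (median -0.04), and of the spermatogonial markers 3 of 8 (median -0.05). The round spermatid list also differed by library set, with 17 of 23 higher in the plain libraries (median 0.10) and 7 of 23 in the numbered ones (median -0.13). TSSK6 was its member at an unadjusted p under 0.05 (log2 difference 0.41, SE 0.18). In the 9 pigs of 4 sows without a block 5 of 23 round spermatid markers were higher (median -0.30), and without control replicate 8 so were 6 of 8 spermatogonial markers (median 0.09). SYCP3, a part of the meiotic chromosome axis (log2 difference -0.19, SE 0.13), and KIT, the receptor of differentiating spermatogonia (log2 difference -0.37, SE 0.21), had lower estimates. Summed elongating spermatid markers stood at 34191, 48089 and 73941 CPM on chicory (lowest, median, highest) and at 21159.5, 40097 and 55001 CPM on control. 1 chicory pig, replicate 7, was above every control, 2 controls were below every chicory pig, and the remaining pigs overlapped.

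The spermatid estimate differed between the library sets. All 24 markers were higher in the plain libraries (median 0.32) and 9 of 24 in the numbered ones (median -0.09), while PRM2 stayed above 0 in both, at 1.04 and 0.35. In the 9 pigs of 4 sows 11 of 24 were higher without a block (median -0.02) and 11 of 24 with the sow as a block (median -0.03). Over all 17 pigs the median was 0.17 with the sow as a random effect and 0.06 with the sire's breeding value (18 of 24 higher). As single pigs were left out, the median ran from 0.12 without High AS chicory replicate 7 to 0.25 without High AS control replicate 1. The plain chicory libraries were also the shallower ones and the chicory pigs had the higher sire breeding values; the part of either in these estimates was not tested. The markers of one cell type vary together from pig to pig, so their number is not a number of independent results.

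**Figure D3:**
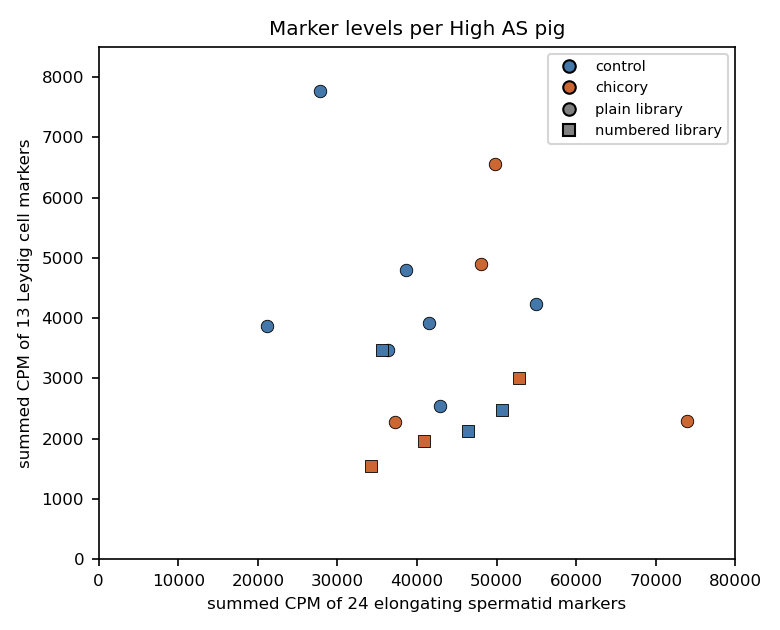
Summed CPM of 13 Leydig cell markers (vertical axis) against summed CPM of 24 elongating spermatid markers (horizontal axis) in each High AS pig, with colour for diet and shape for library set. The chicory pigs reach from 34191 to 73941 CPM of spermatid markers with replicate 7 to the right of every control; 2 chicory pigs lie below the lowest control on the Leydig axis, and the others lie among the controls.

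Among the genes with the smallest p that have a symbol, taken as values and not as calls, those higher on chicory had log2 differences of 0.35 to 0.87. SGIP1 stood at 4.18, 6.95 and 13.05 CPM (lowest, median and highest pig) on chicory and at 1.72, 3.502 and 7.56 CPM on the control diet. SGIP1 is an endocytic adaptor, and all 7 chicory pigs were above the control median with 3 above the highest control (log2 difference 0.87, SE 0.27, adjusted p = 1 in edgeR). HIP1 stood at 279, 345 and 375 CPM (lowest, median and highest pig) on chicory and at 176, 256 and 313 CPM on the control diet, with all 7 above the control median (log2 difference 0.36, SE 0.12); HIP1 is a clathrin adaptor that the mouse needs for normal spermatogenesis. ZNRF3, a ubiquitin ligase that removes Wnt receptors (log2 difference 0.57, SE 0.18), GRIP1, a scaffold protein with PDZ domains (log2 difference 0.40, SE 0.13), CA2, carbonic anhydrase 2 (log2 difference 0.46, SE 0.16), and PENK, the precursor of enkephalins (log2 difference 0.61, SE 0.22), also had all 7 chicory pigs above the control median. TRIM42 (log2 difference 0.49, SE 0.16), CNGA4, a subunit of cyclic nucleotide-gated channels (log2 difference 0.80, SE 0.28), PPP1R12C, a myosin phosphatase subunit (log2 difference 0.40, SE 0.14), and TCOF1, a nucleolar factor of ribosomal RNA synthesis (log2 difference 0.35, SE 0.13), had 6 of 7, and KIAA0930 (log2 difference 0.38, SE 0.14) had 7. Within the 4 sows, SGIP1, HIP1, TRIM42 and PENK were higher on chicory in all 4, GRIP1, CA2, CNGA4, PPP1R12C and SPATA18 in 3, and ZNRF3, KIAA0930 and TCOF1 in 2. Such counts by sow use 1 control pig per sow and no term for library set.

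The genes lower on chicory by the same ranking were mostly at low levels. PECR stood at 0.4499, 1.38 and 1.91 CPM (lowest, median and highest pig) on chicory and at 1.68, 2.83 and 3.87 CPM on the control diet. PECR is a peroxisomal reductase of fatty acid chain elongation, and all 7 chicory pigs were below the control median (log2 difference -0.91, SE 0.29). It was lower in the plain and in the numbered libraries, at -1.25 and -0.61. STC1, the secreted glycoprotein stanniocalcin (log2 difference -0.94, SE 0.29), AMPH, amphiphysin (log2 difference -1.53, SE 0.48), ECSCR, an endothelial surface protein (log2 difference -1.35, SE 0.45), C7, a complement component (log2 difference -1.32, SE 0.45), and MFSD4A, a membrane transporter (log2 difference -0.96, SE 0.33), likewise had all 7 below. NELL2, a secreted signalling protein that germ cells use on the epididymis in the mouse, was at a log2 difference of -0.49 (SE 0.17), and FAM171A1 at -0.68 (SE 0.25). Within the 4 sows, again without a term for library set, PECR, STC1 and AMPH were lower on chicory in all 4. INSIG1, ITIH3, ECSCR, NELL2 and MFSD4A were lower in 3, and ALB, C7 and FAM171A1 in 2. ALB and ITIH3 are described with the liver genes.

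**Figure D4:**
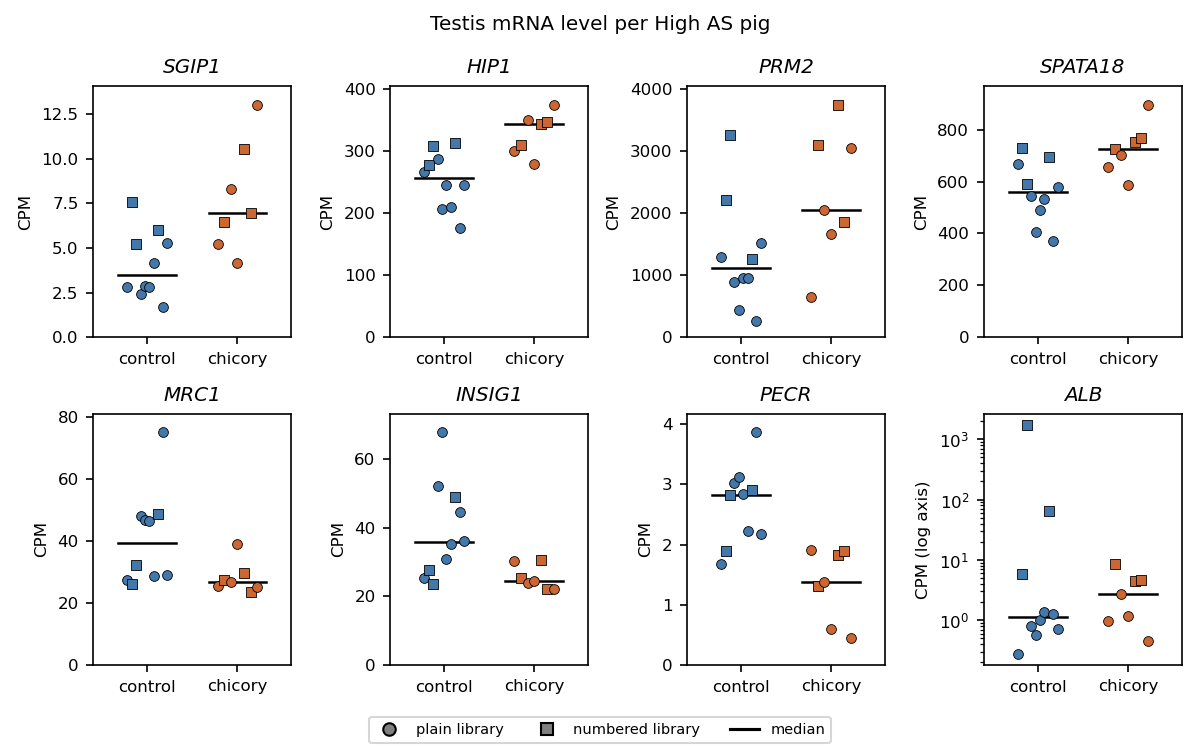
Level (CPM) of 8 genes in each High AS pig by diet, with circles for plain and squares for numbered libraries and a line at the median; the ALB axis is logarithmic. The 7 chicory pigs lie above the control median for SGIP1, HIP1 and SPATA18 and below it for MRC1, INSIG1 and PECR, the ranges of the diets overlap in every panel, and ALB is at 1707 CPM in 1 control pig.

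Vessel and matrix genes had mostly lower estimates on chicory, and none passed the test. Of 13 endothelial markers 2 were higher and the median was -0.42, with LYVE1, a lymphatic hyaluronan receptor (log2 difference -0.81, SE 0.30), and TIE1, an angiopoietin pathway receptor (log2 difference -0.64, SE 0.25), at an unadjusted p under 0.05. The summed markers reached 386 CPM in High AS control replicate 8 against a control median of 176 and a chicory median of 181. Without control replicate 8 the median was -0.17, without control replicates 3 and 8 -0.10, and in the 9 pigs of 4 sows close to 0 both without (0.00) and with the sow as a block (0.02). Of 30 extracellular matrix genes 6 were higher (median -0.10), but 19 of 30 without control replicate 8 (median 0.02) and 18 of 30 without control replicates 3 and 8 (median 0.04). POSTN, periostin, was the member at an unadjusted p under 0.05 (log2 difference -0.92, SE 0.36). With the sire's breeding value 24 of the 30 matrix genes were higher (median 0.16), as were 21 of 29 in the 9 pigs of 4 sows without a block (median 0.29). Sertoli cell markers were 4 of 15 higher with a median of -0.05, and the median was 0.00 without control replicate 3. SOX9, a Sertoli cell factor, had nearly the same estimate on both diets (log2 difference 0.00, SE 0.19). In peritubular cells DES, desmin (log2 difference 0.57, SE 0.22), had a higher and MYLK, the myosin light chain kinase (log2 difference -0.78, SE 0.37), a lower estimate; DES was at -0.03 in the numbered libraries, and MYLK at 0.23 in the 9 pigs with the sow as a block.

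Immune genes had estimates in both directions. MRC1, the mannose receptor of resident macrophages, was below the control median in all 7 chicory pigs (log2 difference -0.51, SE 0.20), and TYROBP, a signalling adaptor of myeloid cells, above it in all 7 (log2 difference 0.67, SE 0.31). MRC1 was at 0.02 in the 9 pigs of 4 sows with the sow as a block, and TYROBP at 0.03 in the numbered libraries. Of 24 interferon response genes 19 were higher (median 0.07), led by IFIT1 (log2 difference 1.19, SE 0.61) with IRF7, a driver of the response, at an unadjusted p under 0.05 (log2 difference 0.51, SE 0.21). In the numbered libraries 7 of 24 were higher (median -0.08), without chicory replicate 4 the median was -0.16 with 7 of 23 higher, and with carcass weight in the test it was -0.12 with 7 of 24 higher. IL33, an alarm cytokine (log2 difference -0.41, SE 0.19), was the 1 cytokine at that level, among 8 of which 1 was higher.

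Of the remaining lists none had a called gene. The 13 mitochondrially encoded genes were all estimated lower (median -0.29), while the 28 nuclear genes of oxidative phosphorylation were even (12 higher, median -0.02), with NDUFA10 of complex I at 0.72 (SE 0.34). Mitochondrial counts took 2.16% to 9.54% of gene counts on chicory and 1.62% to 14.4% on control. Summed over the 13 mitochondrially encoded genes, without a term for library set, the median was 40767 CPM on chicory and 37361 CPM on control. By that sum 4 of 7 chicory pigs were above the control median, and the highest pig was High AS control replicate 3. The median of the mitochondrially encoded genes without High AS chicory replicate 2 was -0.48 and without High AS control replicate 7 -0.14. Medians were 0.06 for insulin and nutrient signalling (11 of 19 higher), with IGF1 at 0.21 (SE 0.30), 0.01 for heat shock genes (10 of 20), 0.06 for immediate early genes (8 of 15), -0.07 for the unfolded protein response (4 of 18), -0.06 for clock genes (4 of 12) and 0.03 for the cell cycle (13 of 22). Glutathione and NRF2 genes were at -0.08 (7 of 19), fatty acid genes at -0.11 (9 of 27), hypoxia genes at -0.11 (5 of 15), ribosomal proteins at -0.04 (4 of 21) and antigen presentation at -0.18 (0 of 5). The sign of a list's median held in all 37 alternative fits computed for the lists for 3 of the 31 lists with 5 or more tested genes: the short-chain fatty acid, the cytokine and the mitochondrially encoded genes. The short-chain fatty acid median was near 0 in some fits. It was -0.013 in the plain libraries (4 of 9 higher), and in the 9 pigs of 4 sows -0.0047 without a block and -0.0039 with it. Fits that leave out 1 pig share all the others, so the 37 fits are not independent. Ribosomal proteins were 17 of 21 higher, median 0.09, in the plain libraries and 0 of 21 higher, median -0.30, in the numbered ones. Antigen presentation was 4 of 5 higher, median 0.19, in the plain libraries, 5 of 5 higher, median 0.07, without control replicates 3 and 8, and 0 of 5 higher, median -0.62, without chicory replicate 4. In iron handling (4 of 18 higher, median -0.10), FTL, ferritin light chain, was at -0.14 (SE 0.22) and ABCB10, a mitochondrial transporter of heme synthesis, at -0.63 (SE 0.25); without High AS control replicate 8 ABCB10 was at -0.32. Blood cell (1 gene tested) and epididymis (2 genes tested) markers allowed no description as lists.

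**Figure D5:**
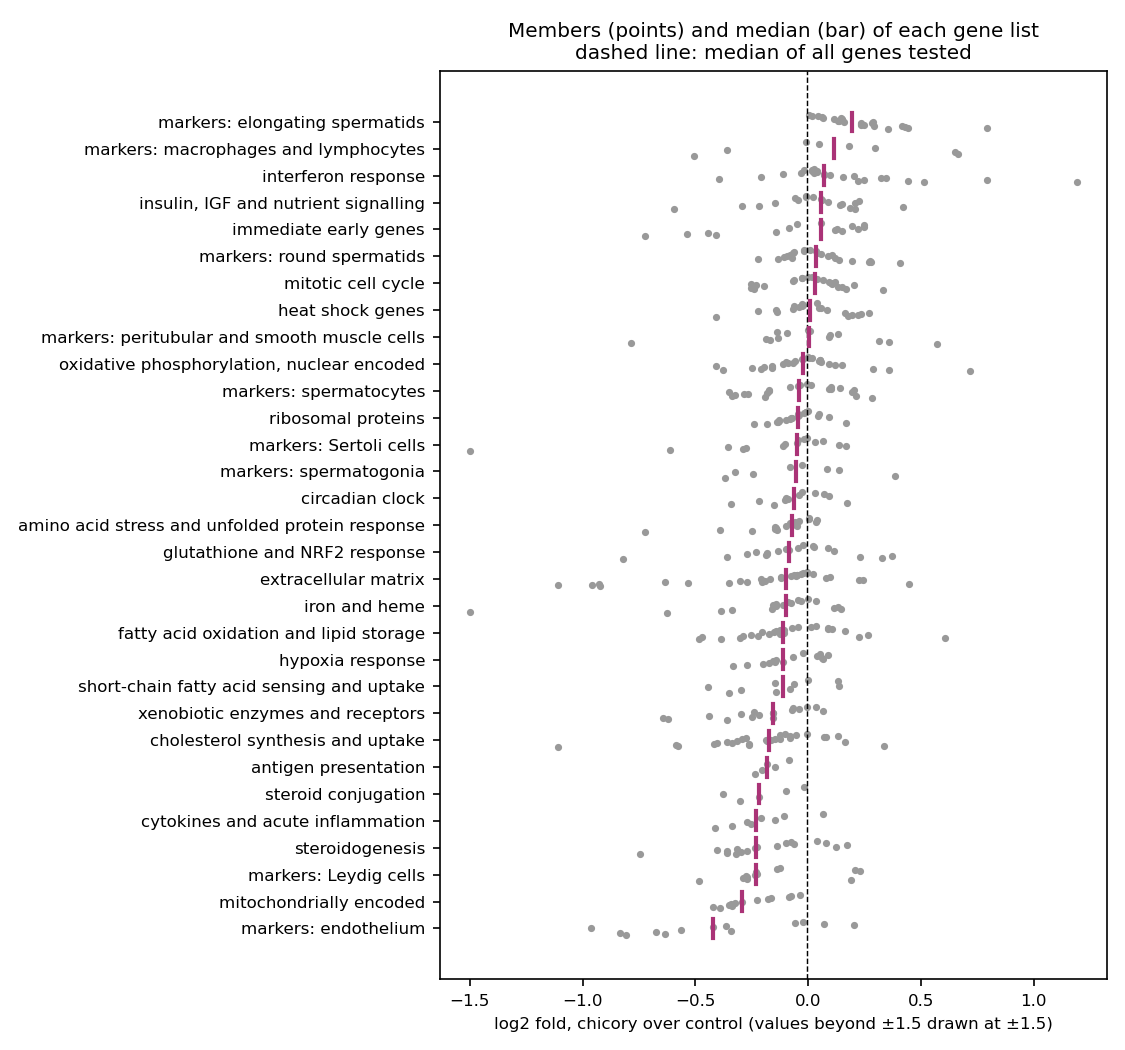
Log2 difference of chicory over control for each tested member of the lists with 5 or more tested genes (points) and the list's median (bar); the dashed line is the median of all 12781 genes tested, -0.01. The elongating spermatid markers all lie above 0 (median 0.20), and the endothelial markers have the lowest median (-0.42).

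Liver-made plasma proteins set apart 1 control pig. ALB, serum albumin, was at 1707 CPM (16914 reads) in High AS control replicate 3 and at 64.8 CPM in control replicate 8, against 0.281, 1.195 and 8.499 CPM (lowest, median, highest) in the other 15 pigs. TF, transferrin, which Sertoli cells also make, was at 241 and 7.81 CPM in those 2 pigs and at most 4.99 CPM in the rest. All 18 liver-secreted genes with an identifier, a list drawn up after ALB was seen, were highest in control replicate 3, and their summed level was 2598 CPM there, 102 in control replicate 8 and 11.7 to 25.9 in the other 15. The log2 difference of ALB was -5.75 (SE 1.45), -1.48 without control replicate 3 and 0.28 (SE 0.39) without both. ITIH3, a hyaluronan-binding plasma protein, was at 23.3 CPM in control replicate 3 and at most 3.18 CPM in every other pig. The same library held the largest mitochondrial share, 14.4% of gene counts; where its liver transcripts came from was not tested.

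A few genes passed the threshold only in other settings and are named after their values were seen. Without a filter on low counts 4 genes were called, and 3 of them, HRG, ITIH1 and SERPIND1, are liver-secreted and highest in control replicate 3; without that pig 0 were called. The fourth, ENSSSCG00000028731, which the name table does not annotate, had reads in 6 of 7 chicory and 3 of 10 control pigs, at up to 5.08 and 0.555 CPM (log2 difference 4.40, SE 0.79, adjusted p = 0.0354 in edgeR). Over the 11 fits that tested it, its adjusted p was between 0.0353 and 0.9999 (edgeR and its alternatives). The lowest came from the 9 pigs of 4 sows with the sow as a block, where it had 17, 3, 17, 70 and 10 reads in the 5 chicory pigs and 0 in the 4 controls; it passed the filter there through the chicory pigs alone, so that call supports nothing. ZNF185, a LIM domain protein, was the other gene called with that block (log2 difference -8.76, adjusted p = 0.0226 in edgeR). It had reads in 2 of 7 chicory and 6 of 10 control pigs and 0 reads in the other pigs, a pattern of presence or absence by pig: chicory replicate 2 had 74 reads and control replicate 10, a son of the same sow, had 19. Its log2 difference was between -8.76 and 0.10 over 39 fits, with an adjusted p of up to 1 (edgeR and its alternatives).

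Whether the diet difference of High AS pigs was its own was tested against 14 Low AS pigs in 1 fit over 31 pigs. Of 13025 genes 0 (0%) had an interaction at an adjusted p under 0.05 in edgeR, with the smallest adjusted p at 0.944, and 473 (3.63%) were at an unadjusted p under 0.05; DESeq2 and limma voom also called 0, with 542 and 303 at that level. For the Low AS pigs in that fit 0 genes were called for diet and 345 had an unadjusted p under 0.05. ALB had the smallest interaction p, with a log2 difference of -5.25 in High AS, where control replicate 3 sets it, and 4.05 in Low AS. SLC4A4, a sodium bicarbonate cotransporter, was at -0.48 and 1.53 (interaction -2.003, SE 0.53). PAX1, a paired box factor, was at 0.77 and -0.92 (interaction 1.69, SE 0.46). ZNF276 was at 0.38 against -0.45, TCOF1 at 0.35 against -0.37, and PLA2R1, a phospholipase receptor, at -0.42 against 1.25.

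No member of a list was called for the interaction either. Elongating spermatid markers were higher on chicory in 3 of 24 cases in Low AS (median -0.14), and PRM2 was at 0.79 in High AS and -0.49 in Low AS (interaction 1.28, SE 0.52, adjusted p = 0.951 in edgeR). Round spermatid markers were higher in 0 of 23 cases in Low AS (median -0.21), so a contrast between the AS groups was not particular to the elongating list. Most Leydig markers had lower estimates in both groups, with 4 of 13 higher in Low AS (median -0.31). The mitochondrially encoded genes were all estimated lower in High AS (median -0.29), but 12 of 13 were estimated higher in Low AS (median 0.31). IL33 and MRC1 had lower estimates on chicory in High AS and higher ones in Low AS, with interactions of -1.08 (SE 0.36) and -1.02 (SE 0.35) and an adjusted p of 0.951 each in edgeR.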

How the data were processed

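RNA of 32 pig testes was sequenced from stranded mRNA libraries. The deposited files hold raw read counts per gene for each pig, made by the authors with HTSeq 0.6.0 after Trimmomatic 0.33, cutadapt 1.8.1, STAR and SAMtools 1.3.1, per the submitters' processing notes; the genome build, annotation release and counting settings are not given in the sources used here. Counts were used as deposited, with the 5 closing rows left out of library sizes. Symbols came from a name table (11804 of 25322 identifiers).

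Genes were filtered with filterByExpr, scaled by TMM and tested with edgeR 4.0.16 (R 4.3.3) by the quasi-likelihood F test with library set as a term, Benjamini-Hochberg adjusted over all genes tested, at 0.05; limma 3.58.1 (voom) and DESeq2 1.42.0 were alternatives. Standard errors are the log2 difference divided by the root of F. The interaction was fitted over 31 pigs with a labelled group; 1 pig without one was not analysed here. Labels were compared by exact permutation of pigs. The test was tried on simulated counts with known changes. Members and gene lists were chosen with earlier results of these data known. Genes are named if on a fixed list, or by the smallest p: up to 12 per direction with a symbol, 4 per gene list at an unadjusted p under 0.05, and 6 for the interaction. Of 28 fixed genes 22 could be tested, and a few items that the rule names are not reported here. The labels name 1 animal per library. No 2 libraries of the same diet were alike within sampling noise (66 pairs). Alternatives covered scaling, filter, library set, lane, sow, carcass weight, androstenone, sire's breeding value and leaving out each pig.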

Additional observations from a re-analysis of the deposited data

Results flagged for a closer look

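Single pigs stood apart from the rest of their diet group by a gap that is a large share of the group's range, in 11 of 135 group values checked. A chance rate of about 1 in 20 assumes independent values. Many of these genes were picked by p in the same pigs, so that rate does not measure how unusual the count is. High AS control replicate 3 was the highest control for ITIH3 (23.3 CPM, next 3.18), CYP2E1 (43.6 CPM, next 7.59) and TF (241 CPM, next 7.81). Control replicate 8 was the highest for LYVE1 (10.1 CPM, next 3.93). Control replicate 10 was the highest for TCOF1 (103 CPM, next 82.00) and the lowest for AMPH (0.482 CPM, next 1.68). Among the chicory pigs, replicate 7 was the highest for LIPE (441 CPM, next 329) and the lowest for NR5A1 (0.8998 CPM, next 2.699). Replicate 3 was the lowest for STC1 (0.461 CPM, next 1.01), and replicate 4 the highest for MYLK (5.08 CPM, next 3.34). In skatole, control replicate 5 was at 0.615 mg/kg against a next value of 0.159 mg/kg.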

How the results depend on the processing

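The diet test called 0 genes in all 38 alternatives except 2: 4 genes with no filter on low counts and 2 genes in the 9 pigs of 4 sows with the sow as a block. The interaction called 0 in its 36 alternatives except 1 gene, ITIH1, with no filter. Of the 64 named genes 40 kept their sign in every alternative that tested them, and 2317 of 2393 gene estimates had the same sign. Not all of the 40 were tested in all 38 alternatives. ITIH3 was tested in 27, STC1 in 28, ECSCR in 31, C7 in 32, and AMPH and PECR in 36 each. Pig numbers serve only as names; the sow is the pairing in the labels, and its block changed no other call. The cause of a change in direction was not tested.

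Log2 differences on the other side of 0 from the value over 17 pigs were as follows. In the 9 pigs of 4 sows without a block these were CYP17A1 0.50, CYB5A 0.13, CYP11A1 0.46, HSD17B3 0.31, INSL3 0.32, LHCGR 0.27, NR5A1 0.28, HSD17B4 0.38, AHR 0.078, NQO1 0.24, FTL 0.012, SOX9 0.077, MYLK 0.14 and MRC1 0.038, and with the sow as a block CYP17A1 0.55, CYB5A 0.074, CYP11A1 0.53, HSD17B3 0.20, INSL3 0.26, LHCGR 0.074, NR5A1 0.11, HSD17B4 0.42, NQO1 0.14, SOX9 0.028, MYLK 0.23 and MRC1 0.025. With the sire's breeding value they were CYP17A1 0.19, CYP11A1 0.068, INSL3 0.038 and HSD17B4 0.061. In the numbered libraries they were SRD5A1 -0.24, NR5A1 0.072, IGF1 -0.30, PRM1 -0.23, TNP1 -0.11, DES -0.034 and SLC4A4 0.23, and in the plain libraries CYP4B1 0.21, INSL3 0.019, CYP2E1 0.32, SOX9 0.0043 and TF 0.31. Without control replicates 3 and 8 they were ALB 0.28, CYP2E1 0.50, SOX9 0.055 and TF 0.28, and with no filter and without control replicate 3 SRD5A1 -0.015, CYP2E1 0.42 and SOX9 0.14. With the index set in place of the library set they were SRD5A1 -0.16, NR5A1 0.054, PRM1 -0.063 and SOX9 0.065, and without lane 7 SRD5A1 -0.044, CYP2E1 0.40 and SOX9 0.039. With limma voom they were SRD5A1 -0.20 and SOX9 0.066, and with the sow as a random effect SRD5A1 -0.17 and SOX9 0.042, and with androstenone added SRD5A1 -0.11, and with no library set term SOX9 0.046. With single pigs left out, 4 genes changed side, SRD5A1 between -0.36 and 0.17, CYP4B1 between -0.35 and 0.062, CYP2E1 between -0.46 and 0.44, SOX9 between -0.089 and 0.15. The difference in androstenone was 0.49 mg/kg in the plain libraries and 0.033 on a log2 scale with 0.5 mg/kg added, against -0.13 mg/kg over all pigs, and that in carcass weight was -2.73 kg in the plain libraries against 0.09 kg.

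With 7 and 10 pigs, the 95% interval of the median gene reached 0.42 to each side on the log2 scale. The filter on low counts left ALB, STC1, AMPH, ITIH3 and C7 untested in the plain libraries alone, and STC1, PECR, ECSCR and C7 in the 9 pigs of 4 sows with the sow as a block.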
